A study of Mus musculus with 9 samples.

Results

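The genes described here are 45 interferon-stimulated genes of the mouse epidermis. They were chosen by symbol in the deposited epidermis gene counts, and all 45 symbols matched 1 gene each among the 52550 genes listed. The libraries were made from total RNA of epidermal ear sheets of wild type C57BL/6 mice aged 8 weeks. Every mouse received 200 µl by gavage for 10 days and a cream on the ears for 5 of those days. In VAS + H2O, the control group, the cream was Vaseline and the gavage was ddH2O. In IMQ + H2O, the model group, the cream was imiquimod and the gavage was ddH2O. In IMQ + XYF, the cream was imiquimod and the gavage was the herbal decoction Xiao-Yin-Fang (XYF) at 23.3 mg/g. Each group has 3 libraries. The methods speak of sheets from a pair of mice and do not state if a library holds 1 animal or a pool, so p-values measure the spread between these libraries, which may be partly technical. Imiquimod is an agonist of Toll-like receptor 7, and its cream on mouse skin is used as a model of psoriasis-like inflammation.

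Type I interferons (IFN-α and IFN-β) bind the receptor IFNAR, and the kinases JAK1 and TYK2 then switch on STAT2 and its partners. With IRF9 these form the complex ISGF3, which binds the interferon-stimulated response element (ISRE) in promoters and turns on a large set of antiviral genes. Type II interferon (IFN-γ) works through the gamma-activated site (GAS), and favours genes such as the guanylate-binding proteins and the chemokines Cxcl9, Cxcl10 and Cxcl11. In skin, Toll-like receptor 7 ligands are known to elicit type I interferon from plasmacytoid dendritic cells, and an interferon gene signature is known from psoriatic plaques.

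Promoter sequence of RefSeq (build GRCm38.p6), from 250 bases before to 50 bases after the transcription start, was held for 34 of the 45 genes. No window was held for Parp14, Mx1, Usp18, Mx2, Rtp4, Iigp1, Zbp1, Dhx58, Oas2, Cxcl11 and Ifi27l2a. The ISRE letters searched were GAAA, any 2 bases, GAAA, on both strands. They stood in the windows of 19 of the 34 genes, or 55.9%, against 1079 of the 27025 genes with a window of the same length, or 3.99%. The GAS letters TTC, any 3 bases, GAA, which read the same on both strands and may overlap an ISRE match, stood in 9 of the 34 (26.5%) and in 2582 of all 27025 (9.55%). Stretches of 50 bases are printed below for genes of several families, because they show where the letters stand and what surrounds them. Some are of related genes, and the letters in capitals were fixed by the search. In each stretch capitals mark a single match to the ISRE letters. The stretches of Isg15, Ifit1, Bst2 and Gbp3 hold further matches that are not marked. Each stretch is written 5′ to 3′ on the strand of its gene, and capitals that begin with TTTC are the element on the other strand.
Isg15, chr4:156200861-156200910, minus strand: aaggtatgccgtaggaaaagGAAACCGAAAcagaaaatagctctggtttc
Ifit1, chr19:34640784-34640833, plus strand: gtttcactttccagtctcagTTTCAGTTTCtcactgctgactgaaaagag
Ifit3, chr19:34583353-34583402, plus strand: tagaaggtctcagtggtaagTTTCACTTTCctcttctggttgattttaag
Ifit3b, chr19:34607749-34607798, plus strand: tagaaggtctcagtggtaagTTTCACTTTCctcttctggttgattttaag
Oas3, chr5:120777705-120777754, minus strand: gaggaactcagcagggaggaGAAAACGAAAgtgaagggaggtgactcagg
Rsad2, chr12:26456543-26456592, minus strand: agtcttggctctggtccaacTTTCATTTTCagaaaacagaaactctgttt
Bst2, chr8:71537567-71537616, minus strand: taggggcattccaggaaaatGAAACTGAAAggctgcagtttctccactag
Gbp2, chr3:142620584-142620633, plus strand: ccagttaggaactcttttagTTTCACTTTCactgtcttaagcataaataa
Gbp3, chr3:142559979-142560028, plus strand: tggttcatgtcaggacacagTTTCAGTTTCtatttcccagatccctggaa
Cxcl10, chr5:92349073-92349122, minus strand: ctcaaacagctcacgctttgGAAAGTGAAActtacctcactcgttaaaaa

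The stretches of Ifit3 and Ifit3b are the same in all 50 bases, as these neighbours are near-identical copies. Isg15 holds 3 overlapping matches, beginning at bases -78, -72 and -66 from the start, and the printed stretch marks the middle one. Of the 13 genes that edgeR called in some comparison and that have a window, 10 held the ISRE letters, and of the 21 others with a window 9 did. The genes with a window and a call that did not hold them were Cxcl9, Ifi44 and Ifi35. A match is a description of letters and not evidence of binding, and a window without them says nothing about other regions of the gene.

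**Figure D1:**
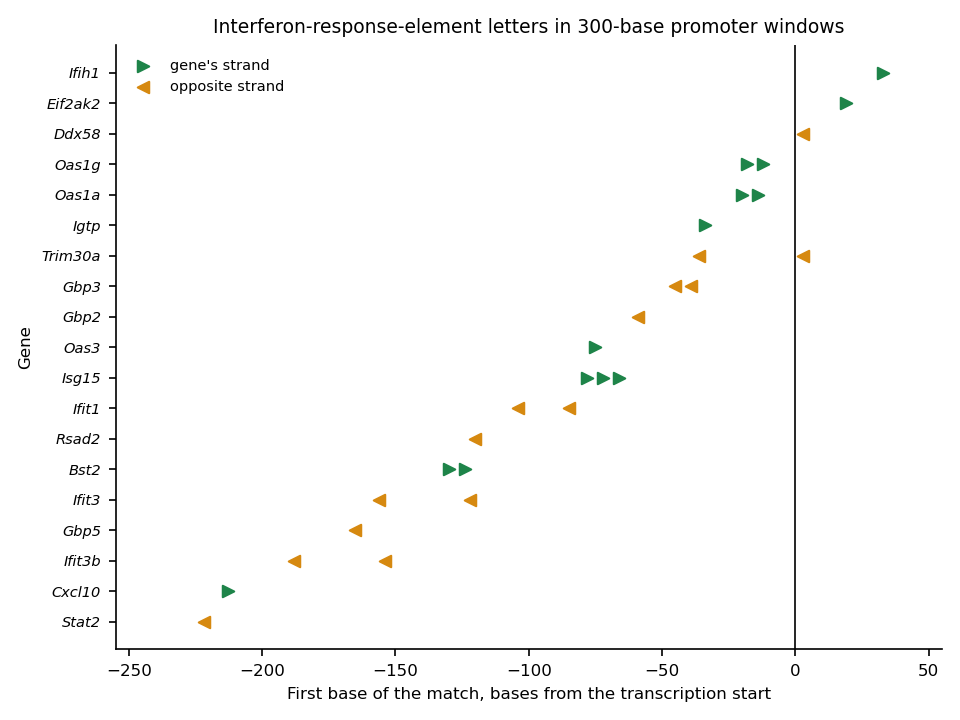
Place of the ISRE letters in the promoter windows of the 19 genes that hold them, with 1 row per gene and, on the horizontal axis, the distance in bases of the match's first base from the transcription start. Right-pointing triangles are matches on the gene's strand and left-pointing triangles are matches on the other strand. Most matches lie before the start, from -222 in Stat2, while those of Ifih1 (33), Eif2ak2 (19) and Ddx58 (3) and the match in a second window of Trim30a (3) lie after it.

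Levels are given in CPM, a gene's counts scaled to the total of its library after TMM normalization, and values of 3 libraries follow the order of the replicate numbers. Total counts were 30298275 to 64771160 per library. The floor of detection was set at 3 counts, which is 0.0472 to 0.104 CPM depending on the library and covers counting error only. Keratinocyte markers summed to 36720 to 61000 CPM, with Krt14, a keratin of basal keratinocytes, at 5069 to 11591 CPM, so the labelled tissue was present in every library. Of the 45 genes, 44 passed the low-count filter over all 9 libraries, and Cxcl11 did not. Their mean log2 CPM was 1.78 ± 0.68 (SD, n = 3) in VAS + H2O, then 2.90 ± 0.18 in IMQ + H2O and finally 3.45 ± 0.27 in IMQ + XYF. The 3 IMQ + XYF libraries (3.64, 3.56 and 3.14) all lay above the 3 IMQ + H2O libraries (2.89, 2.73 and 3.08), and these all lay above VAS + H2O (2.10, 1.01 and 2.25). In this bulk RNA, fewer cells of a type and less RNA per cell cannot be told apart.

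VAS + H2O replicate 2 stood apart. It was the lowest of all 9 libraries for 33 of the 44 genes. Its log2 CPM lay below the mean of VAS + H2O replicates 1 and 3 for 37 of the 44, with a median difference of -1.20 against -0.02 over all 18492 genes. Irf1, Cxcl10, Rsad2, Ifit2 and Gbp5 went the other way and were highest in that library among the 3 controls. The same library was highest in the markers of dermal fibroblasts and cartilage, whose sum over 9 genes was 208, 948 and 246 CPM in VAS + H2O, then 112, 93.9 and 80.0 in IMQ + H2O and finally 358, 253 and 168 in IMQ + XYF. Dcn, which encodes a proteoglycan of dermal fibroblasts, reached 291 CPM there against 23.2 and 33.2 in the other controls, and all 9 markers were detected in every library. Their part in the results below was not tested. Counts of members that involve VAS + H2O are therefore also given without that library.

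**Figure D2:**
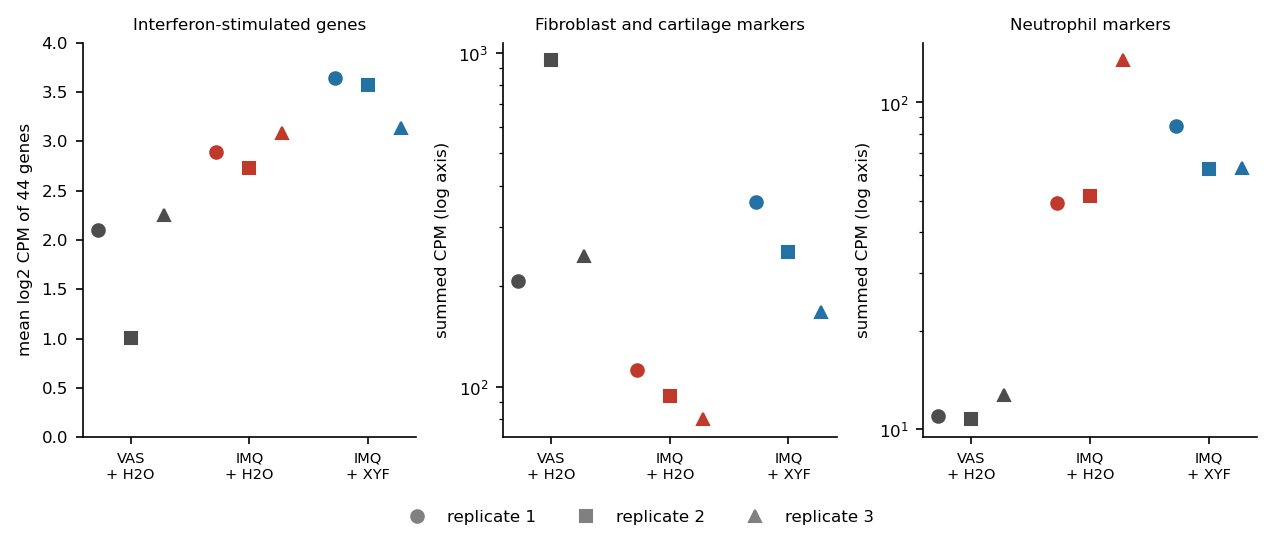
Mean log2 CPM of the 44 interferon-stimulated genes (left), summed CPM of 9 fibroblast and cartilage markers (middle, log axis) and summed CPM of 5 neutrophil markers (right, log axis) in each library, with 1 symbol per replicate number. VAS + H2O replicate 2 is lowest on the left at 1.01 and highest in the middle at 948, and IMQ + H2O replicate 3 is highest on the right at 134.

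The first comparison asks what differed in the epidermis between imiquimod cream and Vaseline. No group received the base of the imiquimod cream alone, so the drug and its base cannot be told apart. Members of 5 roles rose in IMQ + H2O over VAS + H2O. They were Oas1a, the sensor Zbp1, the effectors Mx1 and Rsad2, the chemokines Cxcl9 and Cxcl10, and Ifi44, and they rose by 1.67 to 3.42 on the log2 scale. The test was the quasi-likelihood test of edgeR over all genes, and a gene was called where its p after Benjamini-Hochberg adjustment did not exceed 0.05 and its log2 fold change was 1 or more in size. Of the 43 members tested, 7 were called higher, where 3.64% of all 18009 genes were, and 0 were called lower, where 4.04% of all genes were. At an unadjusted p under 0.05, 17 of the 43 passed in either direction, as did 6823 of the 18009 genes. The median log2 fold change of the 43 was 0.83, against -0.03 over all genes, and 37 were above 0. DESeq2 called 13 members higher, where it called 4.14% of all genes, and 0 lower. The libraries did not overlap for 23 of 44 members, all higher in IMQ + H2O, where 23.1% of all genes were higher and 21.4% lower without overlap. Without VAS + H2O replicate 2, edgeR called 6, where it called 418 of all 18608 genes higher, and the median was 0.56. DESeq2 without that library called 13, where it called 756 of 17791 genes higher. Without it, 23 members were higher without overlap, where 25.6% of all genes were. Without IMQ + H2O replicate 3 edgeR called 1, Mx1 being that gene, where it called 407 of 18439 genes higher. Without IMQ + H2O replicate 1 it called 2, where it called 636 of 18799 genes higher. The call of Mx1 held whichever of the 6 libraries was left out, and each of the 6 other calls was lost in at least 1 such fit.

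The second comparison asks what XYF changed under imiquimod. No member was called between IMQ + XYF and IMQ + H2O by edgeR, in which 5 of all 17793 genes (0.0281%) were called higher. Of the 44 members tested, 42 had a log2 fold change above 0, with a median of 0.48, against 0.00058 over all genes, and a range from -0.13 (Trim30a) to 1.47 (Iigp1). At an unadjusted p under 0.05, 16 of the 44 passed, as did 966 of the 17793 genes. DESeq2 called 2 members higher, Ifit1 and Lgals3bp, where it called 0.74% of all genes higher. The libraries did not overlap for 13 of 44 members, all higher in IMQ + XYF, where 6.02% of all genes were higher and 4.7% lower without overlap. Leaving out each library in turn gave 0 calls by edgeR each time and medians of 0.40 to 0.63. The IMQ + XYF libraries were not alike, as replicates 1, 2 and 3 were the highest of all 9 libraries for 13, 27 and 0 of the 44 members. The fibroblast and cartilage markers differed here and in the first comparison. For 7 of 9 they were higher in all IMQ + XYF than in all IMQ + H2O libraries. DESeq2 called 6 of 9 higher and edgeR called 0. In IMQ + H2O against VAS + H2O, 7 of 9 were lower without overlap. There edgeR called 4 lower and DESeq2 called 7. Whether they bear on the members' values was not tested.

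The third comparison sets IMQ + XYF against VAS + H2O. Here 17 of 43 tested members were called higher by edgeR, where 4.58% of all 17954 genes were, and 0 were called lower, where 3.05% were. At an unadjusted p under 0.05, 30 of the 43 passed in either direction, as did 7418 of the 17954 genes. The median log2 fold change was 1.39 against -0.04 over all genes, with 40 of 43 above 0. DESeq2 called 23 members higher, where it called 4.91% of all genes, and 0 lower. For 34 of 44 members the libraries did not overlap, all higher in IMQ + XYF, where 24.8% of all genes were higher and 22.0% lower. Without VAS + H2O replicate 2, edgeR called 17, where it called 725 of all 18386 genes higher. DESeq2 without that library called 21, where it called 926 of 18452 genes higher. Without it, 34 members were higher without overlap, where 27.6% of all genes were. Without IMQ + XYF replicate 1 edgeR called 8, where it called 707 of 18509 genes higher. Without IMQ + XYF replicate 2 it called 10, where it called 800 of 18590 genes higher. The calls of Cxcl9, Ifi35, Ifi44, Igtp, Mx1, Oas1a, Rsad2 and Zbp1 held whichever library was left out, and those of the 9 others were lost in at least 1 such fit. The 3 comparisons share libraries in pairs, so their values are set side by side below and not taken as independent of each other.

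**Figure D3:**
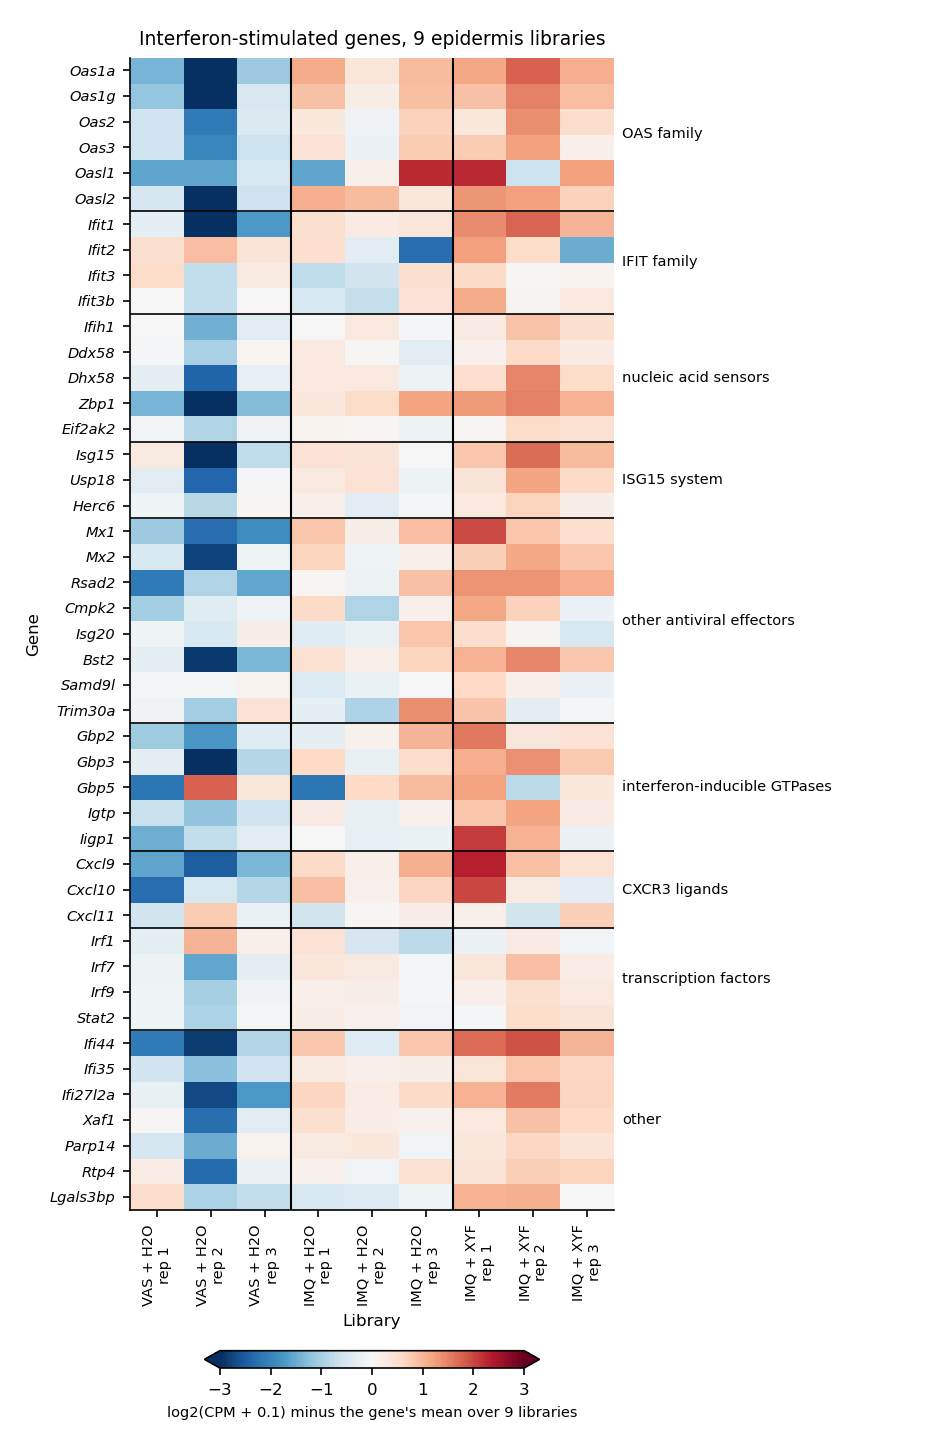
Level of each of the 45 genes (rows, by role) in the 9 libraries (columns), as log2(CPM + 0.1) minus the gene's mean over the 9 libraries, with blue below and red above that mean. Most rows are blue in the 3 VAS + H2O columns, darkest in replicate 2, and reddest in the IMQ + XYF columns, while Irf1, Gbp5 and Ifit2 are red in VAS + H2O replicate 2.

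The OAS family makes 2′-5′-linked oligoadenylates on double-stranded RNA, which switch on RNase L. Oas2, Oas3, Oas1g and Oas1a lie in a cluster on chromosome 5 (GENCODE M21, GRCm38), from 120730333 to 120907521. Oas1a stood at 3.26, 0.455 and 4.07 CPM in VAS + H2O, at 19.0, 11.3 and 16.9 in IMQ + H2O and at 19.7, 30.04 and 18.8 in IMQ + XYF. All 6 libraries with imiquimod lay above the 3 controls, and the imiquimod groups overlapped each other. Its log2 fold change was 2.59 ± 0.65 (SE) for IMQ + H2O against VAS + H2O (adjusted p = 0.0345, edgeR) and 3.12 ± 0.66 for IMQ + XYF against VAS + H2O (adjusted p = 0.0140, edgeR). The neighbour Oas1g, which shares 45.2% of its exonic 50-mers with Oas1a, had 2.35, 0.334 and 3.81 CPM in VAS + H2O, then 9.99, 6.09 and 10.0 in IMQ + H2O and finally 10.0, 15.4 and 10.3 in IMQ + XYF. Reads of such a pair can be split by the counting, so the separate values of Oas1a and Oas1g are uncertain. With counts of the copies summed, edgeR called 7 members in IMQ + H2O and 16 in IMQ + XYF against VAS + H2O. Of all genes, it called 656 of 18007 and 822 of 17952 higher.

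Oas2 stood at 4.21, 1.40 and 4.68 CPM in VAS + H2O, at 7.95, 5.88 and 10.4 in IMQ + H2O and at 7.97, 17.0 and 9.26 in IMQ + XYF. Oas3, the largest enzyme of the family, stood at 3.83, 1.43 and 3.70 CPM in VAS + H2O, at 7.88, 5.15 and 9.96 in IMQ + H2O and at 9.82, 13.7 and 6.50 in IMQ + XYF. In both, no control library reached any imiquimod library. By edgeR, Oas1g, Oas2 and Oas3 were called in IMQ + XYF (log2 fold changes of 2.45, 1.73 and 1.74) and not in IMQ + H2O, where DESeq2 called all 3. The other family members are OAS-like proteins, among which Oasl1 restrains translation of Irf7. Oasl2 ranged from 1.21 to 20.7 CPM in VAS + H2O, from 37.0 to 62.0 in IMQ + H2O and from 47.1 to 72.8 in IMQ + XYF. The controls overlapped neither imiquimod group, edgeR called it in no comparison, and its lowest control was VAS + H2O replicate 2. Oasl1 was near the floor with 0, 0 and 0.115 CPM in VAS + H2O, then 0, 0.234 and 1.32 in IMQ + H2O and finally 1.34, 0.0925 and 0.599 in IMQ + XYF. It was too low for edgeR's filter in the comparisons with VAS + H2O, and DESeq2 called it higher in IMQ + XYF. None of the 6 differed without overlap between IMQ + XYF and IMQ + H2O, where 6.02% of all genes were higher and 4.7% lower. Their log2 fold changes there were all above 0, at 0.28 to 0.54 (edgeR).

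The IFIT proteins bind viral RNA and block its translation, and their genes lie on chromosome 19 between 34550694 and 34650009. The 4 members did not move together. Ifit1 stood at 6.96, 0.820 and 2.52 CPM in VAS + H2O, at 12.1, 10.2 and 11.0 in IMQ + H2O and at 23.1, 29.2 and 17.4 in IMQ + XYF. The 3 groups did not overlap anywhere, and all 3 IMQ + XYF libraries were the highest. Its log2 fold change between IMQ + XYF and IMQ + H2O was 1.07 ± 0.20 by edgeR (adjusted p = 0.352) and 1.06 ± 0.21 by DESeq2 (adjusted p = 0.000166), so that only DESeq2 called it. Against VAS + H2O it was 1.67 ± 0.64 in IMQ + H2O (adjusted p = 0.106, edgeR), where DESeq2 called it, and 2.73 ± 0.67 in IMQ + XYF (adjusted p = 0.0241, edgeR). Ifit1 shares 7.06% of its 50-mers with the related Ifit1bl2.

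The rest of the family was not called in any comparison by either tool. Ifit2 ranged from 1.43 to 2.09 CPM in VAS + H2O, from 0.139 to 1.55 in IMQ + H2O and from 0.314 to 2.61 in IMQ + XYF. Ifit3 ranged from 1.79 to 4.51 CPM in VAS + H2O, from 1.76 to 4.31 in IMQ + H2O and from 3.12 to 4.59 in IMQ + XYF. Its near-identical copy Ifit3b, with 44.5% of its 50-mers in Ifit3, ranged from 0.637 to 1.15 CPM, from 0.650 to 1.55 and from 1.20 to 2.58 in the same order. These 3 genes overlapped between IMQ + H2O and VAS + H2O, although Ifit3 and Ifit3b each carry 2 matches to the ISRE letters in their windows.

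The nucleic acid sensors include RIG-I (Ddx58) and MDA5 (Ifih1), which signal on viral RNA, their relative LGP2 (Dhx58), the Z-nucleic acid sensor Zbp1, which can start necroptosis, and the kinase PKR (Eif2ak2), which halts translation. Zbp1 stood at 0.889, 0.182 and 0.947 CPM in VAS + H2O, at 3.11, 3.72 and 5.83 in IMQ + H2O and at 6.22, 7.31 and 5.22 in IMQ + XYF. It rose by 2.62 ± 0.55 on the log2 scale in IMQ + H2O (adjusted p = 0.0207, edgeR) and by 3.19 ± 0.51 in IMQ + XYF (adjusted p = 0.00565, edgeR) against VAS + H2O. Eif2ak2, the sensor with the highest level per length, stood at 50.8, 28.8 and 50.1 CPM in VAS + H2O, at 57.9, 56.4 and 48.2 in IMQ + H2O and at 55.5, 79.0 and 73.5 in IMQ + XYF. It was not called, and its imiquimod libraries without XYF overlapped the controls.

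Dhx58 stood at 5.35, 1.15 and 5.48 CPM in VAS + H2O, at 8.05, 8.06 and 5.86 in IMQ + H2O and at 9.30, 18.2 and 9.58 in IMQ + XYF. Ifih1 stood at 59.2, 21.8 and 47.2 CPM in VAS + H2O, at 60.6, 73.7 and 57.6 in IMQ + H2O and at 70.7, 108 and 83.1 in IMQ + XYF. DESeq2 called both higher in IMQ + XYF than in VAS + H2O, by 1.63 and 1.03 on the log2 scale, and edgeR called neither (adjusted p = 0.0761 and 0.0701). Dhx58 was among the members that did not overlap between any 2 groups. Ddx58 was not called, at 24.0 to 48.8 CPM in VAS + H2O, then 37.1 to 57.5 in IMQ + H2O and finally 51.2 to 70.0 in IMQ + XYF.

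Isg15 is a ubiquitin-like protein that is joined to other proteins by Herc6 in the mouse and removed by Usp18, which also damps signalling at the type I interferon receptor. Isg15 stood at 27.2, 1.55 and 13.2 CPM in VAS + H2O, at 30.7, 29.4 and 22.8 in IMQ + H2O and at 40.0, 72.9 and 43.8 in IMQ + XYF. VAS + H2O replicate 1 lay within the IMQ + H2O range, so those groups overlapped, while every IMQ + XYF library lay above every other library. It was not called in any comparison by either tool. Between IMQ + XYF and IMQ + H2O it passed the p-value part but not the fold part by DESeq2 (0.918 ± 0.239, adjusted p = 0.0188). There edgeR gave 0.924 ± 0.244 (adjusted p = 0.560). In the comparisons with VAS + H2O, the SD of the controls was 12.8 around a mean of 14.0 CPM. Usp18 ranged from 2.28 to 11.9 CPM in VAS + H2O, from 11.1 to 16.8 in IMQ + H2O and from 16.2 to 28.1 in IMQ + XYF. Herc6, which shares 12.0% of its 50-mers with Gm45193, ranged from 3.10 to 5.82, from 4.42 to 6.19 and from 6.30 to 8.98 CPM in the same order. All 3 genes of the system were higher without overlap in IMQ + XYF than in VAS + H2O, as were 24.8% of all genes, and none was called.

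Other antiviral effectors act on entry, replication or release of viruses. Mx1 is a dynamin-like GTPase against influenza virus whose allele in C57BL/6 mice is known to give no functional protein. It stood at 2.12, 0.880 and 1.18 CPM in VAS + H2O, at 8.40, 5.31 and 8.87 in IMQ + H2O and at 18.7, 8.39 and 6.64 in IMQ + XYF. The log2 fold change against VAS + H2O was 2.41 ± 0.37 in IMQ + H2O (adjusted p = 0.0105, edgeR) and 3.0 ± 0.51 in IMQ + XYF (adjusted p = 0.00665, edgeR). It was the member whose calls held in every fit with a library left out, in both comparisons. Its relative Mx2 stood at 3.89, 0.698 and 4.96 CPM in VAS + H2O, at 8.67, 4.92 and 6.02 in IMQ + H2O and at 8.91, 12.1 and 9.49 in IMQ + XYF. DESeq2 alone called Mx2, in IMQ + XYF against VAS + H2O (1.68 ± 0.52, adjusted p = 0.00605).

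Rsad2, or viperin, makes a nucleotide that ends viral RNA chains. It stood at 0.487, 1.27 and 0.774 CPM in VAS + H2O, at 2.56, 2.21 and 4.65 in IMQ + H2O and at 6.47, 6.45 and 5.39 in IMQ + XYF. The groups did not overlap, and the controls held their low values in replicate 2 as well, in which Rsad2 was the highest of the 3. The log2 fold change against VAS + H2O was 1.89 ± 0.45 in IMQ + H2O (adjusted p = 0.0291, edgeR) and 2.87 ± 0.35 in IMQ + XYF (adjusted p = 0.00233, edgeR). Its neighbour on chromosome 12, Cmpk2, a nucleotide kinase, was not called, at 0.550 to 1.12 CPM in VAS + H2O, then 0.598 to 1.83 in IMQ + H2O and finally 1.05 to 2.84 in IMQ + XYF.

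Bst2, or tetherin, holds budding viruses at the cell surface. It stood at 10.2, 1.58 and 4.76 CPM in VAS + H2O, at 17.0, 13.8 and 19.7 in IMQ + H2O and at 25.7, 34.5 and 21.9 in IMQ + XYF. The 3 groups did not overlap in any pair. Its log2 fold change against VAS + H2O was 1.59 ± 0.57 in IMQ + H2O (adjusted p = 0.0901, edgeR), where DESeq2 called it, and 2.30 ± 0.59 in IMQ + XYF (adjusted p = 0.0280, edgeR). The exonuclease Isg20, the translation inhibitor Samd9l and Trim30a overlapped between all groups. Isg20 ranged from 1.91 to 3.01 CPM in VAS + H2O, from 2.04 to 4.79 in IMQ + H2O and from 1.88 to 3.88 in IMQ + XYF. Samd9l, in the same order, ranged from 7.30 to 8.23, from 5.74 to 7.64 and from 6.81 to 11.6 CPM, and Trim30a from 1.002 to 2.93, from 1.09 to 5.81 and from 1.76 to 3.99 CPM.

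**Figure D4:**
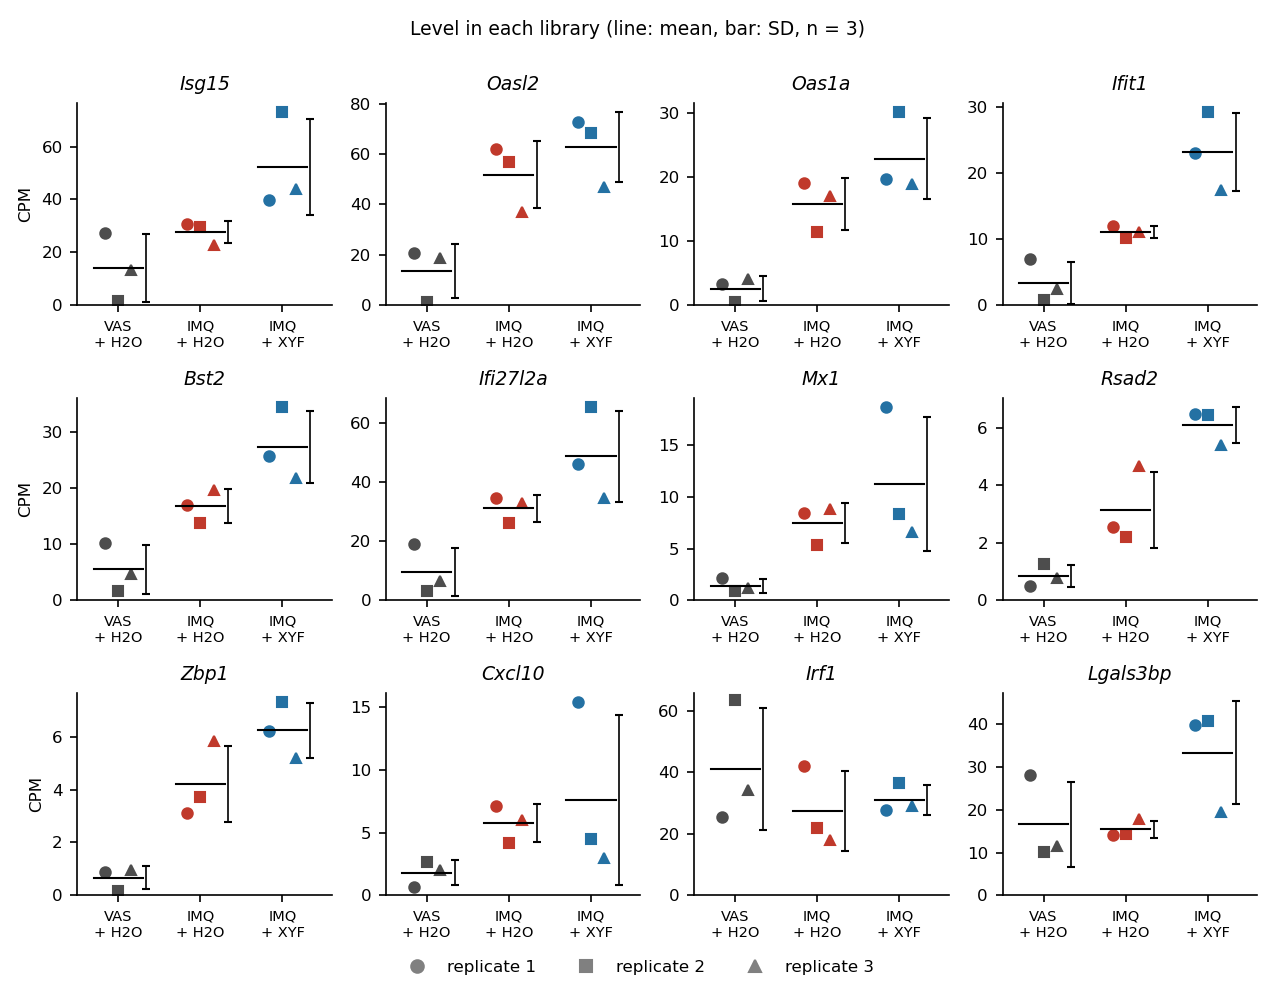
CPM in each library for 12 of the genes, with 1 symbol per replicate number, the mean of each group as a line and the SD (n = 3) as a bar. Oas1a, Ifit1, Bst2, Mx1, Rsad2 and Zbp1 lie higher in all imiquimod libraries than in VAS + H2O, Irf1 is highest in VAS + H2O replicate 2 at 63.4 CPM, and Lgals3bp is higher in each IMQ + XYF library than in each IMQ + H2O library.

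The interferon-inducible GTPases (guanylate-binding proteins and immunity-related GTPases) attack the vacuoles of intracellular pathogens and are known to follow IFN-γ more than other members do. Gbp2 stood at 2.35, 1.43 and 3.87 CPM in VAS + H2O, at 4.11, 5.51 and 10.3 in IMQ + H2O and at 15.3, 6.38 and 6.87 in IMQ + XYF. Gbp3 stood at 2.35, 0.273 and 1.55 CPM in VAS + H2O, at 4.39, 2.47 and 4.21 in IMQ + H2O and at 6.24, 7.56 and 5.02 in IMQ + XYF. Both were called in IMQ + XYF against VAS + H2O by edgeR, with log2 fold changes of 1.90 ± 0.48 and 2.15 ± 0.63. In IMQ + H2O the values were 1.37 ± 0.46, which DESeq2 called, for Gbp2, and 1.38 ± 0.64, called by neither tool, for Gbp3.

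Igtp (Irgm3) had the highest level per length of these GTPases and shares 11.8% of its 50-mers with Irgm2. It stood at 4.10, 2.82 and 4.30 CPM in VAS + H2O, at 7.81, 5.62 and 7.22 in IMQ + H2O and at 11.8, 14.96 and 7.78 in IMQ + XYF. Iigp1 (Irga6) stood at 0.783, 1.37 and 1.84 CPM in VAS + H2O, at 2.35, 1.98 and 2.04 in IMQ + H2O and at 10.4, 4.97 and 2.05 in IMQ + XYF. The spread of Iigp1 within IMQ + XYF was wide, and its replicate 3 lay within the range of IMQ + H2O. In IMQ + XYF against VAS + H2O the log2 fold change was 1.62 ± 0.28 for Igtp (adjusted p = 0.00743, edgeR) and 2.14 ± 0.61 for Iigp1 (adjusted p = 0.0408, edgeR). In IMQ + H2O against VAS + H2O, Igtp passed the p-value part but not the fold part (0.865 ± 0.223, adjusted p = 0.0362, edgeR). Gbp5 was low, at 0 to 1.43 CPM over the 9 libraries, and was highest in VAS + H2O replicate 2.

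Cxcl9, Cxcl10 and Cxcl11 are chemokines that draw T cells and natural killer cells through the receptor CXCR3, and their genes lie in another cluster on chromosome 5, from 92321347 to 92365485. Cxcl9 had 4, 0 and 4 counts in VAS + H2O, or 0.0846, 0 and 0.115 CPM, and stood at 0.726, 0.520 and 1.06 CPM in IMQ + H2O and at 2.72, 0.925 and 0.656 in IMQ + XYF. It rose by 3.42 ± 0.72 on the log2 scale in IMQ + H2O (adjusted p = 0.0205, edgeR) and by 4.35 ± 0.88 in IMQ + XYF (adjusted p = 0.0124, edgeR), from controls at or near the floor. Cxcl10 stood at 0.698, 2.67 and 2.04 CPM in VAS + H2O, at 7.12, 4.16 and 6.00 in IMQ + H2O and at 15.4, 4.53 and 2.96 in IMQ + XYF. The log2 fold change was 1.67 ± 0.48 in IMQ + H2O (adjusted p = 0.0485, edgeR), a call that was lost without any 1 of the 6 libraries. In IMQ + XYF against VAS + H2O it was 2.11 ± 0.74 (adjusted p = 0.0752, edgeR), which only DESeq2 called. IMQ + XYF replicate 1 was the highest library for both chemokines. Cxcl11 had 0 to 5 counts per library and was too low for edgeR's filter, DESeq2 gave it no adjusted p, and 41.7% of its exon bases overlap another gene.

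Among the transcription factors, Irf9 and Stat2 are parts of ISGF3, Irf7 amplifies interferon production, and Irf1 responds to IFN-γ and other cytokines. Irf9 stood at 71.8, 38.9 and 73.0 CPM in VAS + H2O, at 86.6, 88.5 and 76.7 in IMQ + H2O and at 86.5, 109 and 95.2 in IMQ + XYF. Irf7 stood at 15.6, 5.92 and 14.5 CPM in VAS + H2O, at 22.1, 21.04 and 16.8 in IMQ + H2O and at 22.0, 33.0 and 20.4 in IMQ + XYF. Both were higher in each imiquimod library than in each control. Of the 4 factors edgeR called none in any comparison, and DESeq2 called only Irf7, in IMQ + XYF against VAS + H2O (1.07 ± 0.34, adjusted p = 0.00785). Stat2 ranged from 31.2 to 58.4 CPM in VAS + H2O, from 56.9 to 69.7 in IMQ + H2O and from 58.4 to 87.8 in IMQ + XYF. Irf1 ranged from 25.4 to 63.4 CPM, from 17.9 to 42.2 and from 27.6 to 36.6 in the same order, with its highest value in VAS + H2O replicate 2.

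The remaining members have varied roles. Ifi44, a cytoplasmic protein of little known function, stood at 0.275, 0.121 and 0.774 CPM in VAS + H2O, at 2.70, 1.12 and 2.69 in IMQ + H2O and at 5.06, 5.89 and 3.16 in IMQ + XYF. It rose by 2.46 ± 0.66 on the log2 scale in IMQ + H2O (adjusted p = 0.0401, edgeR) and by 3.59 ± 0.60 in IMQ + XYF (adjusted p = 0.00637, edgeR). Ifi27l2a, the member with the highest level per length, stood at 18.9, 3.31 and 6.63 CPM in VAS + H2O, at 34.5, 26.0 and 32.9 in IMQ + H2O and at 45.9, 65.2 and 34.7 in IMQ + XYF. Per kilobase of exon its mean was 20.7 RPKM in VAS + H2O, then 67.2 in IMQ + H2O and finally 105 in IMQ + XYF, against 18.5, 36.6 and 69.1 RPKM for Isg15, the next highest. Ifi27l2a was called only in IMQ + XYF against VAS + H2O (2.33 ± 0.61, adjusted p = 0.0299, edgeR). Ifi35, which binds the factor Nmi, stood at 17.7, 10.9 and 17.6 CPM in VAS + H2O, at 31.5, 29.3 and 29.3 in IMQ + H2O and at 33.5, 46.4 and 40.2 in IMQ + XYF. It was called in the same comparison (1.38 ± 0.21, adjusted p = 0.00498, edgeR), and 16.8% of its exon bases overlap another gene. In IMQ + H2O against VAS + H2O, Ifi35 passed the p-value part but not the fold part (0.952 ± 0.186, adjusted p = 0.0172, edgeR).

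Lgals3bp, a secreted glycoprotein that binds galectins, had a pattern of its own. It stood at 28.2, 10.0 and 11.6 CPM in VAS + H2O, at 14.2, 14.5 and 17.8 in IMQ + H2O and at 39.8, 40.9 and 19.6 in IMQ + XYF. The model group lay within the range of the controls, and all IMQ + XYF libraries lay above the model group. Unlike Isg15, Herc6, Mx2 and Parp14, it also overlapped between IMQ + XYF and VAS + H2O, as 19.6 lay below 28.2 CPM. Its log2 fold change between IMQ + XYF and IMQ + H2O was 1.12 ± 0.28 by edgeR (adjusted p = 0.524) and 1.11 ± 0.27 by DESeq2 (adjusted p = 0.00759), and only the latter called it. The pro-apoptotic Xaf1, the ADP-ribosyltransferase Parp14 and the receptor transporter Rtp4 were not called. Xaf1 ranged from 4.01 to 20.02 CPM in VAS + H2O, from 21.3 to 27.2 in IMQ + H2O and from 24.1 to 36.4 in IMQ + XYF. Parp14, in the same order, ranged from 10.0 to 30.7, from 26.7 to 35.6 and from 35.8 to 43.9 CPM, and Rtp4 from 0.577 to 3.83, from 3.10 to 4.49 and from 4.32 to 5.40 CPM.

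**Figure D5:**
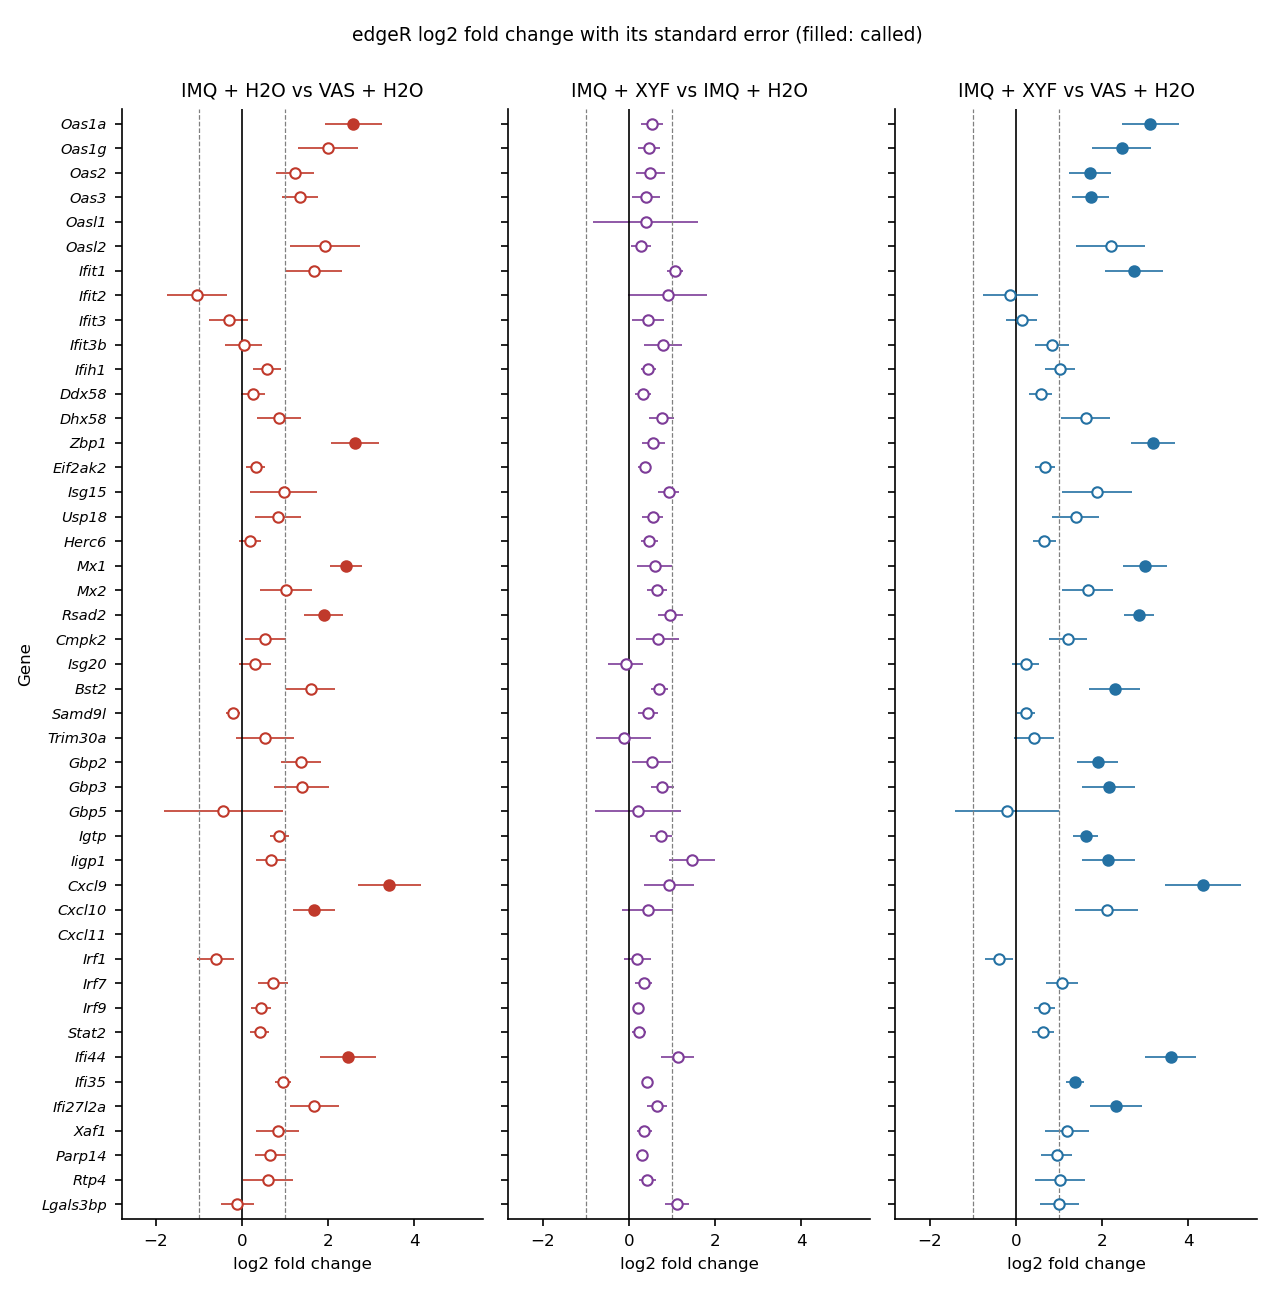
edgeR log2 fold change of each member (points) with its standard error (bars) in the 3 comparisons, with filled points for genes called and dashed lines at 1 and -1. 7 points are filled on the left, none in the middle and 17 on the right, and most points in the middle panel lie between 0 and 1.

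Other genes of the pathway were examined in 5 lists that hold 96 genes together, which are ligands, receptors and signal transducers, inducers of interferon, inhibitors and further targets. Of the 21 interferon genes listed, 13 had no count in any library, among them Ifng, Ifne, Ifnl2 and Ifnl3. The other 8 had at most 5 counts in a library. Those with over 3 counts somewhere were Ifna2 (0 to 5 counts), Ifna13 (0 to 4) and Ifnz (0 to 4), and Ifnb1 had 3 counts in VAS + H2O replicate 2 and 0 elsewhere. No interferon transcript was above 3 counts in all libraries of any group, so a difference between groups was not detectable at this depth. Toll-like receptor 7 itself (Tlr7) was also low, at 0 to 0.182 CPM in VAS + H2O, 0.173 to 0.347 in IMQ + H2O and 0 in all IMQ + XYF libraries. The 4 plasmacytoid dendritic cell markers differed from each other. Siglech was at 0 in 7 of 9 libraries, with at most 12 counts, and Ptcra had at most 2 counts. Cox6a2 had 0 to 132 counts, with its highest level, 4.01 CPM, in VAS + H2O replicate 2, the library highest in fibroblast and cartilage markers. Whether Cox6a2 stands for plasmacytoid dendritic cells here was not tested. The chemokine receptor gene Ccr9, which T cells also express, stood at 7.38 to 12.0 CPM and was higher in all IMQ + H2O than in all VAS + H2O libraries (log2 fold change of 0.44 ± 0.16, adjusted p = 0.0933, edgeR).

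The receptors for interferon were expressed in every library. Ifnar1, a chain of the type I receptor, was between 37.2 and 46.5 CPM, and its partner chain Ifnar2 between 7.57 and 13.5 CPM. Of the type II receptor, Ifngr1 was between 80.3 and 153 CPM and Ifngr2 between 26.6 and 38.7 CPM. None of these 4 receptor genes met both parts of the call rule in any comparison by edgeR or DESeq2. Ifngr2 passed the p-value part but not the fold part in IMQ + XYF against VAS + H2O, with a log2 fold change of 0.29 ± 0.07 (SE, edgeR adjusted p = 0.0253). The 5 inhibitors (Socs1, Socs3, Ptpn2, Ptpn6 and Pias1) were tested and not called in any comparison.

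Among 18 genes that induce interferon, 16 were tested. Against VAS + H2O, edgeR called Myd88, Mb21d1 and Tmem173 higher in IMQ + H2O, where 3.64% of all genes were, and Mb21d1 and Tmem173 in IMQ + XYF, where 4.58% were. Without VAS + H2O replicate 2 it called Mb21d1 and Tmem173 in both, where 418 of 18608 and 725 of 18386 genes were called higher. Myd88, the adaptor of Toll-like receptors, stood at 43.0, 42.5 and 54.8 CPM in VAS + H2O, at 89.7, 90.1 and 104 in IMQ + H2O and at 91.0, 96.7 and 81.0 in IMQ + XYF. The DNA sensor cGAS (Mb21d1) stood at 6.88, 4.98 and 5.97 CPM in VAS + H2O, at 17.1, 14.6 and 20.6 in IMQ + H2O and at 17.4, 20.9 and 24.5 in IMQ + XYF. STING (Tmem173), which signals from cGAS, stood at 1.80, 2.61 and 1.86 CPM in VAS + H2O, at 4.87, 4.94 and 9.54 in IMQ + H2O and at 6.51, 13.5 and 6.64 in IMQ + XYF. These 3 had low spread among the controls, with no drop in VAS + H2O replicate 2 like that of Isg15. The log2 fold changes against VAS + H2O were 1.54 and 1.81 for Mb21d1 and 1.62 and 2.09 for Tmem173 in IMQ + H2O and IMQ + XYF, all called by edgeR. That of Myd88 was 1.0 in IMQ + H2O, which edgeR called.

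A further 42 interferon-stimulated genes were listed beside the 45. Against VAS + H2O, edgeR called 3 of 37 tested higher in IMQ + H2O and 11 of 37 in IMQ + XYF, and it called none of 40 between IMQ + XYF and IMQ + H2O. Of all genes, 3.64%, 4.58% and 0.0281% were called higher in these comparisons. Without VAS + H2O replicate 2, edgeR called 3 of 39 in IMQ + H2O (Ifitm3, Slfn2 and Phf11d) and 5 of 39 in IMQ + XYF (the same 3 with Ifi205 and Parp12). Of all genes, it then called 418 of 18608 and 725 of 18386 higher. Gbp9, Slfn5 and Oas1c were lower without overlap in IMQ + H2O than in VAS + H2O, as were 21.4% of all genes, at log2 fold changes of -0.57, -0.62 and -0.71, and none of these 3 was called. The median log2 fold changes of the list were 0.40, 0.59 and 0.11 in that order of comparisons. Ifitm3, which blocks entry of enveloped viruses, stood at 124, 62.8 and 96.9 CPM in VAS + H2O, at 350, 300 and 429 in IMQ + H2O and at 449, 529 and 451 in IMQ + XYF. The log2 fold change was 1.92 ± 0.25 in IMQ + H2O and 2.33 ± 0.24 in IMQ + XYF (adjusted p = 0.00806 and 0.00143, edgeR). Slfn2, a regulator of T cells and monocytes, rose by 3.36 and 3.35 on the log2 scale in the same comparisons, and Ifi205 by 2.65 and 2.45. Ifi204, Parp12 and Nmi were called in IMQ + XYF and not in IMQ + H2O, by 1.60, 1.27 and 1.08.

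Neutrophil markers differed between libraries of a group. The receptor gene Csf3r stood at 0, 0.0911 and 0.0860 CPM in VAS + H2O, at 0.173, 0.858 and 38.0 in IMQ + H2O and at 22.9, 1.33 and 6.10 in IMQ + XYF. The sum of the 5 markers was 10.7 to 12.7 CPM in VAS + H2O, then 49.4 to 134 in IMQ + H2O and finally 62.6 to 85.0 in IMQ + XYF, most of it Cxcr2. The defining marker Ly6g was at 0 in 6 of 9 libraries and at most 0.509 CPM. IMQ + H2O replicate 3, with the highest sum, was the highest of all 9 libraries for 2 of the 44 members. IMQ + XYF replicate 1, with the next highest sum, was the highest for 13 members, Cxcl9, Cxcl10, Gbp2, Iigp1 and Mx1 among them. IMQ + XYF replicate 2 was the highest for 27 and replicate 3 for 0. The share of all genes that were highest in each library was not counted. Whether these markers stand for neutrophils, and whether they bear on the members' values, was not tested.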

How the data were processed

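RNA of mouse epidermal ear sheets was sequenced in 3 groups of 3 libraries, grouped by the deposited titles. The paper gives TruSeq libraries, STAR alignment to GRCm38 with an Ensembl annotation, StringTie and DESeq2. The submitters' processing notes give STAR 2.5, FastQC, Cuffnorm and DESeq 1.22.1. The authors deposited whole-number counts per gene, not normalized. The tool and strand setting of counting are not given in the sources used here, so genes that share reads may be miscounted. Total counts were 30298275 to 64771160 per library.

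The 6 libraries of each pair of groups were fitted alone with edgeR 4.0.16 (TMM, filterByExpr, glmQLFit and glmQLFTest, R 4.3.3), with p-values adjusted over all genes tested (Benjamini-Hochberg). Calls were made at an adjusted p up to 0.05 with a log2 fold change of 1 or more in size. The fits were tested on simulated data. RPKM divides CPM by the union of exons in GENCODE M21. Alternatives were DESeq2 1.42.0, RLE size factors, no filter, a joint fit of 9 libraries, a replicate block, adjusted p alone, glmTreat, summed near-identical copies and each library left out.

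The members and all gene lists were chosen with earlier results of these data known. Genes given library by library are members called by either tool and the highest per length of each role. Others are given by their range. Pathway genes are named where called (up to 6 per list), and ligands where over 3 counts. Genes named beyond this, such as Irf1 and Ifnar1, were picked after their values were seen. One gene of the pathway lists is not reported here.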

Additional observations from a re-analysis of the deposited data

How the results depend on the processing

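No member was called lower under any alternative, and no member changed sign in a comparison in which edgeR or DESeq2 called it. Of the members tested by edgeR, called or not, the sign differed in at least 1 alternative for 6 of 43 in IMQ + H2O against VAS + H2O. It did so for 6 of 43 in IMQ + XYF against VAS + H2O, and for 8 of 44 between the imiquimod groups. Gbp5, Isg20 and Trim30a were among them in all 3 comparisons. The members that changed sign had log2 fold changes of at most 0.59 in size in the fit reported. Between IMQ + H2O and VAS + H2O, edgeR called 7 members higher. DESeq2 called 13, glmTreat called 0, and DESeq2 without VAS + H2O replicate 2, a setting chosen after seeing the data, called 13. Leaving out 1 library at a time gave 1 to 7, where 407 to 701 of all genes were called higher. The counts of members without overlap were 23 and 34 both with and without VAS + H2O replicate 2, also added after seeing the data, and among further pathway targets leaving it out took the calls in IMQ + XYF from 11 to 5. Between IMQ + XYF and IMQ + H2O, DESeq2 called 2 and the other settings 0, leave-one-out fits included. Between IMQ + XYF and VAS + H2O, edgeR called 17, glmTreat called 1, and leave-one-out fits gave 8 to 17. Of all genes, these leave-one-out fits called 630 to 864 higher. The remaining settings (RLE size factors, no filter, all 9 libraries, adjusted p alone, summed copies) stayed within 1.5 times of each count. The cause of these differences was not tested, except that glmTreat asks for more than a log2 fold change of 1 by construction.

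Replicate numbers are shared between groups, but the labels give no animal or batch behind them. Deviations from the group means correlated between same-numbered libraries at -0.133 to 0.105, so the numbers were not taken to pair libraries. With the number as a replicate block, edgeR called 9 members in IMQ + H2O and 11 in IMQ + XYF against VAS + H2O. Of all genes, it called 571 of 18009 and 728 of 17954 higher. Between IMQ + XYF and IMQ + H2O it called 0 members and 0 of all genes.

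The main limits are 3 libraries per group, the low levels of VAS + H2O replicate 2, which widen the errors of genes such as Isg15 and Oasl2, and low counts for Oasl1, Gbp5, Cxcl9 and Cxcl11.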
